A study of Mus musculus with 16 samples.

Results

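Epo, Thpo, Csf2, Csf3, Kitl and Kit were measured in mouse colonic mucosa as part of an inflammation panel. They are 6 of the 584 genes on the panel and are covered by 8 of its 648 assays. The members were picked by gene name with their Ct values in these samples already known. Their differences between groups are therefore given as a description, with a standard error and an interval but with no test.

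The first 5 genes encode secreted or membrane-bound signals, and Kit encodes a receptor. Erythropoietin, the product of Epo, drives red cell formation and is made mainly by the adult kidney. Thrombopoietin, the product of Thpo, drives megakaryocyte and platelet formation and is made mainly by the liver. Granulocyte-macrophage colony-stimulating factor (Csf2) acts on macrophages, granulocytes and dendritic cells, and granulocyte colony-stimulating factor (Csf3) drives neutrophil production and release. Stem cell factor (Kitl) is the ligand of the receptor tyrosine kinase Kit, which is carried by mast cells, interstitial cells of Cajal and some haematopoietic progenitors.

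The 16 samples fall into 4 groups of 4. DNBS_CEC received DNBS (dinitrobenzene sulphonic acid, a hapten that causes colitis) into the rectum and CEC by mouth. CEC is not spelled out in the labels. DNBS_Nissle received DNBS into the rectum and Nissle, the name of a probiotic Escherichia coli strain, by mouth. DNBS received DNBS into the rectum and buffer (PBS) by mouth, and healthy received PBS by both routes. The labels give no strain, age, sex or time after DNBS for these groups. The design text says that RNA of the mice was pooled before measurement, whereas each sample carries a number of its own. A sample may thus be a single mouse or a pool, and every error below measures only the spread between these samples. RNA was measured with TaqMan OpenArray assays. Levels are given as −ΔCt, the mean Ct of 13 endogenous control genes minus the Ct of the gene, so that a step of 1 stands for a doubling if amplification is perfect. A Ct of at most 28 counts as detected, a higher Ct enters at 28 (at the limit), and a Ct of 40 is taken as no amplification. Levels of different assays are not comparable with each other.

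Between 528 and 564 of the 648 assays were detected per sample. The groups averaged 552 ± 4.83 detected assays in DNBS_CEC, 558 ± 6.24 in DNBS_Nissle, 557 ± 4.55 in DNBS and 535 ± 4.97 in healthy samples (SD, n = 4 each). Of the 10368 values, 194 (1.87%) were exactly the average of the remaining 3 samples in that group, and are called filled here. Healthy sample 3 held 57 of these filled values and DNBS_Nissle sample 1 held 61. Of the members' values, 3 were filled: Thpo in DNBS_Nissle sample 1, Kitl in DNBS_Nissle sample 5 and the second Csf3 assay in DNBS_CEC sample 8. The epithelial genes Il18 and Cftr were detected in 16 of 16 samples. Of the genes of other organs looked at, Gh, of the pituitary, was detected in 0 of 16, and Ins2, an insulin gene of the pancreas, in 12 of 16, with a lowest Ct of 19.9. The source of the Ins2 signal was not tested. Fewer cells of a type and less RNA per cell cannot be told apart in these samples.

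Epo stood apart by being present or absent. The Epo assay amplified in all 4 DNBS_CEC samples, with Ct values of 23.1, 27.3, 24.3 and 24.9. It gave a Ct of 40 in all 4 DNBS_Nissle samples. In DNBS samples the Ct was 26.6, 25.8, 24.8 and, just past the limit, 28.4. In healthy samples it was 23.8 and 24.7 in samples 3 and 4, and 40 in samples 5 and 6. Healthy samples thus held both early amplification and none.

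On the scaled values, Epo lay at −3.84, −8.06, −4.60 and −5.87 in DNBS_CEC samples, a spread of over 4 cycles within 1 group. The 3 detected DNBS samples lay at −7.03, −6.78 and −4.94, and the 2 detected healthy samples at −3.66 and −5.32. Epo was at least 10.1-fold higher in DNBS_CEC than in DNBS_Nissle samples, with each DNBS_Nissle sample taken at its limit. The bound was 17.9-fold without DNBS_CEC sample 2 and 6.74-fold without DNBS_CEC sample 1. Epo was at least 3.73-fold lower in DNBS_Nissle than in DNBS samples, a bound of 2.30-fold without DNBS sample 4 and 6.40-fold without DNBS sample 5. Both bounds take the wells without a product as wells in which the assay worked, which was not tested.

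Over all assays, DNBS_Nissle samples held 37 to 46 wells at a Ct of 40 per sample. The range was 40 to 45 in DNBS samples, 42 to 48 in DNBS_CEC samples and 47 to 56 in healthy samples. These counts do not show whether the Epo wells themselves worked. Of the 648 assays, 6 (0.926%) were detected in at least 3 of 4 DNBS_CEC samples and in at most 1 of 4 DNBS_Nissle samples. Of the 648 assays, 3 (0.463%) were detected in at most 1 of 4 DNBS_Nissle samples and in at least 3 of 4 DNBS samples. Epo was on both lists, and it was the only assay detected in all 4 DNBS_CEC samples with a Ct of 40 in all 4 DNBS_Nissle samples. Between DNBS_CEC and DNBS samples the Epo difference was 1.35 ± 1.11 (log2, SE, 95% interval −1.02 to 3.71), and those groups overlapped. It was 0.66 without DNBS sample 5, 0.76 without DNBS_CEC sample 1 and 2.17 without DNBS_CEC sample 2.

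**Figure D1:**
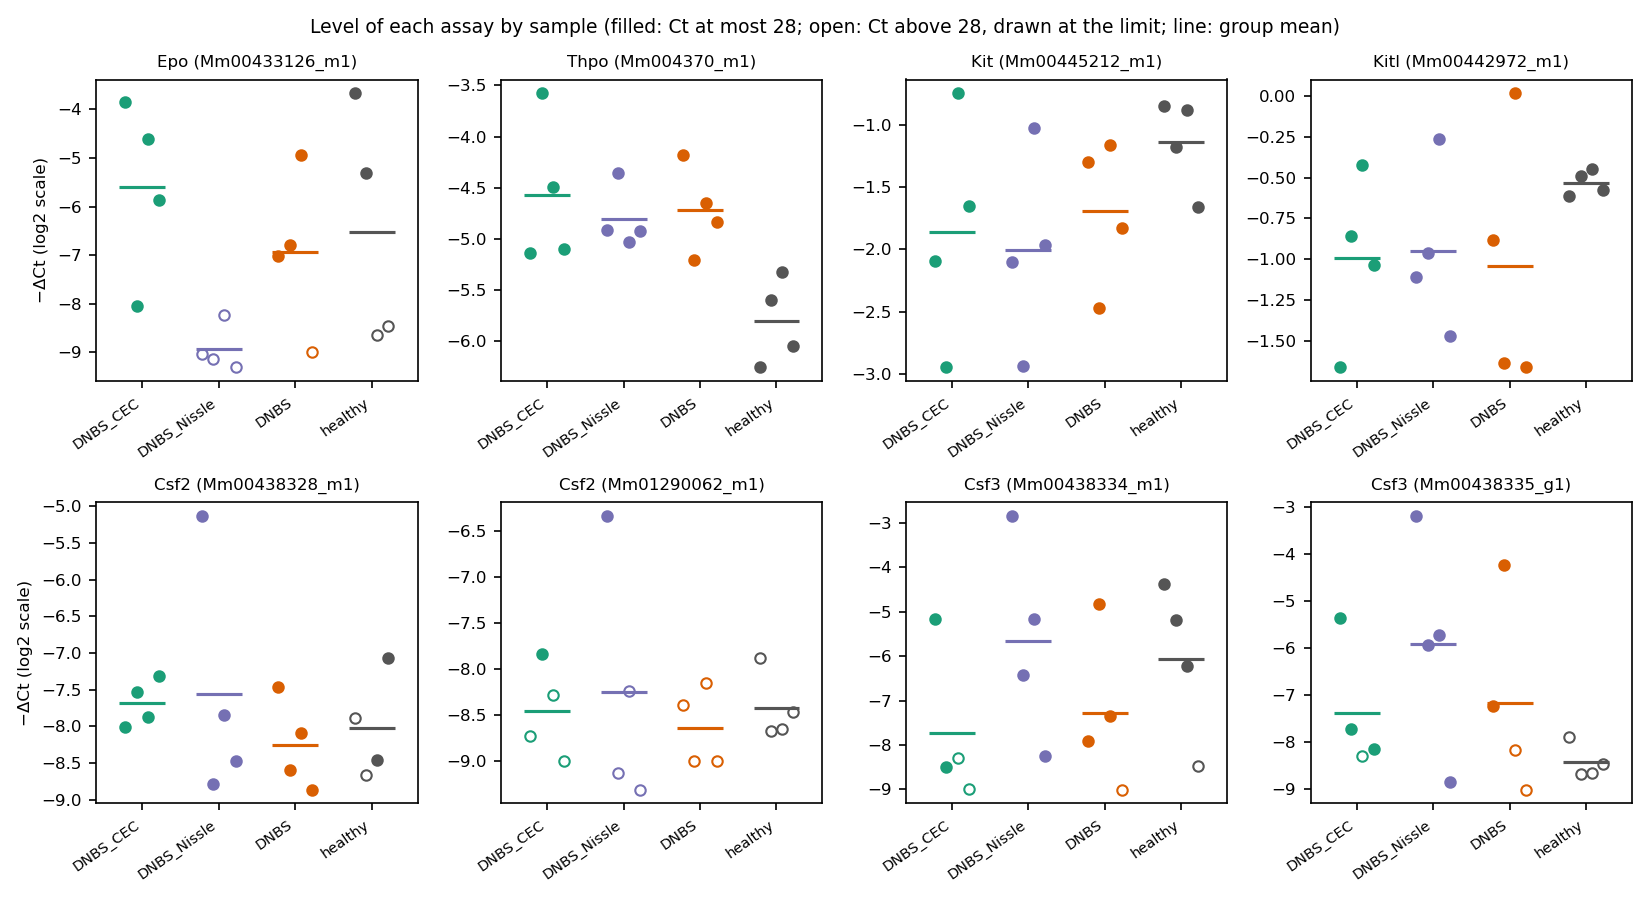
Level of each of the 8 assays in each of the 16 samples, as −ΔCt on a log2 scale, by group. Filled points have a Ct of at most 28, open points lie at the limit, and lines are group means. All 4 DNBS_Nissle samples are open points for Epo, and for Thpo the 12 samples given DNBS lie above −5.32, the highest healthy sample. The Thpo Ct of DNBS_Nissle sample 1 equals the average of the rest of its group.

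Thpo was detected in 16 of 16 samples and was higher in each group given DNBS than in healthy samples. It lay at −5.14, −3.58, −4.49 and −5.10 in DNBS_CEC samples. In DNBS_Nissle samples it lay at −4.91, −4.36, −5.03 and −4.92, and in DNBS samples at −4.18, −5.20, −4.65 and −4.83. Healthy samples lay at −6.25, −5.60, −5.32 and −6.04. Each of the 12 samples given DNBS was above each healthy sample, and the closest were DNBS sample 3 and healthy sample 5. Among the 12, the value of DNBS_Nissle sample 1 is a filled one.

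The Thpo difference from healthy was 1.23 ± 0.37 for DNBS_CEC (2.34-fold, 95% interval 0.44 to 2.02 on the log2 scale). It was 0.999 ± 0.373 for DNBS_Nissle (1.998-fold, interval 0.21 to 1.79) and 1.09 ± 0.37 for DNBS (2.13-fold, interval 0.30 to 1.88; SE throughout). These differences share the same 4 healthy samples. Genes whose groups did not overlap in that direction made up 2.53% of the genes tested for DNBS_CEC, 7.19% for DNBS_Nissle and 6.77% for DNBS. Of 428 genes detected in all samples, 6 (1.4%) had all 12 samples given DNBS above all 4 healthy samples, and Thpo was among them with Cxcl5, Hif1a, Il3ra, Muc1 and Nos2.

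The separation of Thpo depended on the scaling, and its direction did not. Under 6 scalings, the groups given DNBS lay wholly above healthy in 8 of 18 checks, and in none of those scaled to Gapdh alone, to the mean of all detected genes or by quantiles. Among the groups given DNBS, the Thpo ranges overlapped. The difference was 0.14 ± 0.37 between DNBS_CEC and DNBS (interval −0.65 to 0.93), −0.09 ± 0.37 between DNBS_Nissle and DNBS (interval −0.88 to 0.70) and 0.23 ± 0.37 between DNBS_CEC and DNBS_Nissle (interval −0.56 to 1.02).

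Csf3 varied widely between samples, and its assays disagreed in healthy mucosa. The first Csf3 assay gave Ct values of 24.4, 27.7, 28.6 and 29.97 in DNBS_CEC samples. It gave 21.8, 25.3, 24.9 and 26.9 in DNBS_Nissle samples and 27.5, 23.8, 27.2 and 28.8 in DNBS samples. Healthy samples gave 24.5, 24.5, 25.6 and 30.6, so that 3 of 4 healthy samples counted as detected and the groups overlapped.

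The second Csf3 assay gave another order. Its Ct values were 24.6, 26.9, 29.8 and 27.1 in DNBS_CEC samples, 22.1, 24.8, 25.5 and 27.5 in DNBS_Nissle samples, and 26.8, 23.2, 30.9 and 28.3 in DNBS samples. In healthy samples they were 40, 29.9, 40 and 31.0. By this assay Csf3 was detected in 3 of 4 DNBS_CEC, 4 of 4 DNBS_Nissle, 2 of 4 DNBS and 0 of 4 healthy samples. The value of DNBS_CEC sample 8, 1 of those 3 detections, is a filled one, and the first assay read 29.97 there. Assays detected in at least 3 of 4 samples of the group and in at most 1 of 4 healthy samples made up 2.01% of all assays for DNBS_CEC and 2.93% for DNBS_Nissle.

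The sign of the Csf3 difference from healthy turned with the assay for DNBS_CEC and DNBS. By the second assay, all 4 healthy samples entered at the limit. DNBS minus healthy was −1.21 ± 1.19 by the first assay and 1.27 ± 1.09 by the second (log2, SE). DNBS_CEC minus healthy was −1.67 ± 1.21 by the first assay, with 2 of 4 DNBS_CEC samples at the limit, and 1.04 ± 1.09 by the second. This comparison and all second-assay differences came from a fit of every assay without the detection filter. DNBS_Nissle minus healthy was 0.40 ± 1.19 by the first assay and 2.51 ± 1.09 by the second. By the first assay it was −0.55 without DNBS_Nissle sample 1 and −0.41 without healthy sample 6. DNBS minus healthy by the first assay was −0.63 without DNBS sample 5 and −2.01 without healthy sample 6. DNBS_Nissle minus DNBS had the same sign in both assays, at 1.60 ± 1.20 by the first assay (interval −0.94 to 4.15) and 1.24 ± 1.09 by the second (interval −1.08 to 3.55). By the first assay it was 0.66 without DNBS_Nissle sample 1, 1.03 without DNBS sample 5 and 2.46 without DNBS_Nissle sample 7.

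The Csf3 assays can be set against each other sample by sample. In the 12 samples given DNBS, the Csf3 assays were within 2 cycles of each other in 10, and their Ct values correlated with r = 0.81 across those samples, a description only. The exceptions were DNBS_CEC sample 8, whose second value is filled, and DNBS sample 4, where the second assay was 3.73 cycles later. In healthy samples 3 and 5 the first assay amplified and the second gave no product. In healthy samples 4 and 6, where both amplified, the second assay was later by 5.38 and 0.40 cycles. Which assay reports the healthy level was not tested.

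**Figure D2:**
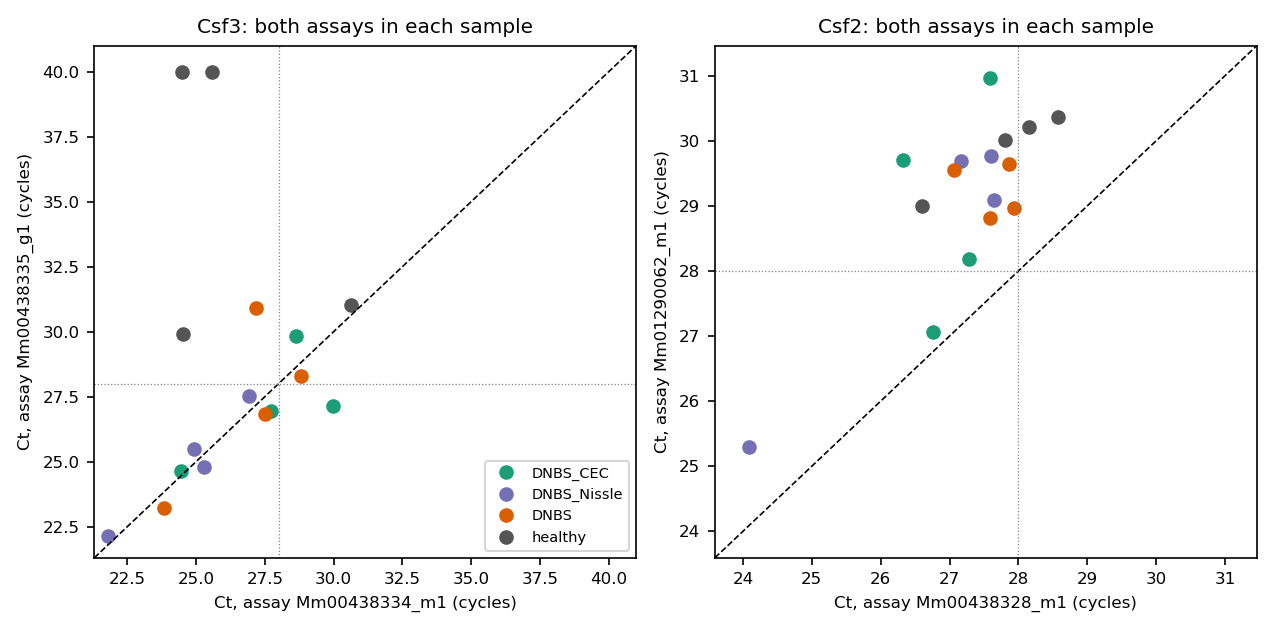
Ct of the second assay (y axis, cycles) against Ct of the first (x axis, cycles) for Csf3 and Csf2 in each of the 16 samples, coloured by group. Dashed lines mark equal Ct and dotted lines the limit of 28. For Csf3, healthy samples 3, 4 and 5 lie far above the dashed line, with a second-assay Ct of 40, 29.9 and 40.

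Neutrophil transcripts moved alongside Csf3 in some samples. The mean level of the 7 neutrophil markers on the panel (of 11 listed) spanned −6.71 to −2.60 in DNBS_CEC, −3.11 to −1.91 in DNBS_Nissle, −4.69 to −0.56 in DNBS and −7.34 to −6.38 in healthy samples. The highest Csf3 level of each group given DNBS, by both assays, fell in the sample with that group's highest neutrophil level, which was DNBS_CEC sample 1, DNBS_Nissle sample 1 and DNBS sample 3. Below these top samples the orders did not always match. DNBS_Nissle sample 5 came next after sample 1 in both measures. In contrast, DNBS sample 5 had a neutrophil level of −3.46, above −3.82 in DNBS sample 2, yet its Csf3 was at the limit in both assays. DNBS sample 4, lowest of its group in neutrophil level, had first-assay Csf3 at −7.34, above −7.91 in DNBS sample 2. By the second assay the order was the reverse, with DNBS sample 4 at the limit and DNBS sample 2 at −7.23. Healthy samples also differed: by the first assay, healthy samples 3, 4 and 5 had Csf3 levels of −4.37, −5.19 and −6.22 at neutrophil levels of −6.72, −6.38 and −7.34. All 5 neutrophil markers tested against healthy were higher in each group given DNBS. S100a8 was higher by 4.71 ± 1.52 in DNBS_CEC, 7.81 ± 1.51 in DNBS_Nissle and 6.49 ± 1.52 in DNBS samples (log2, SE). For S100a9 the values were 4.32 ± 1.43, 7.48 ± 1.43 and 6.23 ± 1.43, and for Il8rb 1.705 ± 0.80, 4.27 ± 0.80 and 3.11 ± 0.80, in that order. These 3 genes passed in DNBS_Nissle, each with a limma adjusted p of 0.0115, where 2.11% of all genes tested passed. In DNBS_CEC and in DNBS, 0 of the 5 passed. With healthy sample 3 left out, 0 genes of the panel passed in DNBS_Nissle minus healthy. The part of neutrophils in the Csf3 values was not tested.

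Csf2 gave late Ct values, near or past the limit in most samples. The first Csf2 assay lay at −8.01, −7.54, −7.87 and −7.32 in DNBS_CEC samples, at −5.13, −8.78, −7.85 and −8.47 in DNBS_Nissle samples and at −7.46, −8.59, −8.09 and −8.86 in DNBS samples. In healthy samples it was at the limit in samples 3 and 4, and it lay at −8.46 and −7.07 in the others. One value stood out, in DNBS_Nissle sample 1, and the other 3 samples of that group lay within the range of DNBS samples.

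DNBS_CEC minus DNBS was 0.57 ± 0.64 for Csf2 (interval −0.79 to 1.93), and DNBS_Nissle minus DNBS was 0.69 ± 0.64 (interval −0.66 to 2.05). Without DNBS sample 5 the first of these was 0.36, and without DNBS_Nissle sample 1 the second was −0.12. Leaving out DNBS_Nissle sample 4 gave 1.10. DNBS_CEC minus DNBS_Nissle was −0.12 ± 0.64 (interval −1.48 to 1.23), and 0.69 without DNBS_Nissle sample 1. Leaving out any other single sample kept it between −0.53 and −0.02. Against healthy, Csf2 was not tested because 2 of 4 healthy samples were at the limit. A fit without the detection filter gave 0.34 ± 0.64 for DNBS_CEC, 0.46 ± 0.64 for DNBS_Nissle and −0.23 ± 0.64 for DNBS by the first assay. The second Csf2 assay was detected in 1 DNBS_CEC sample and 1 DNBS_Nissle sample and in no DNBS or healthy sample. DNBS_Nissle sample 1 had the lowest Ct of the 16 samples in both Csf2 assays (24.1 and 25.3) and in both Csf3 assays (21.8 and 22.1).

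Kit and Kitl, the receptor and its ligand, were readily detected in 16 of 16 samples and were lower on average in each group given DNBS. Kit lay at −2.09, −2.95, −0.74 and −1.65 in DNBS_CEC samples. It lay at −2.10, −2.94, −1.02 and −1.96 in DNBS_Nissle samples and at −1.30, −2.47, −1.16 and −1.83 in DNBS samples. Healthy samples lay at −0.84, −1.18, −0.87 and −1.66, and the lowest of them was below the highest sample of each group given DNBS, so that the groups overlapped.

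The Kit difference from healthy was −0.72 ± 0.48 for DNBS_CEC (interval −1.74 to 0.30), −0.87 ± 0.48 for DNBS_Nissle (interval −1.89 to 0.15) and −0.55 ± 0.48 for DNBS (interval −1.57 to 0.47). Every interval included 0. The differences were −0.36 without DNBS_CEC sample 2, −0.56 without DNBS_Nissle sample 4 and −0.29 without DNBS sample 3 in their groups. Of 16 listed mast cell genes, 4 were on the panel. Fcer1a, the IgE receptor chain that marks mast cells and basophils, was detected in 1 of 16 samples. Fcer1g, Il1rl1 and Alox5, which other leukocytes also express, were detected in 16. The mean level of the 4 genes was −5.08 ± 0.29 in DNBS_CEC, −4.75 ± 0.34 in DNBS_Nissle, −4.78 ± 0.45 in DNBS and −5.21 ± 0.15 in healthy samples (SD, n = 4 each). With Fcer1a mostly at the limit, this mean does not measure mast cells, and their part in the Kit values was not tested.

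Kitl lay at −1.66, −0.86, −0.42 and −1.03 in DNBS_CEC samples. It lay at −1.11, −0.96, −0.26 and −1.47 in DNBS_Nissle samples and at −0.88, −1.64, 0.02 and −1.66 in DNBS samples. Healthy samples were tightly grouped at −0.61, −0.49, −0.45 and −0.58, with an SD of 0.08 against 0.51 in DNBS_CEC, 0.51 in DNBS_Nissle and 0.79 in DNBS samples. Each group given DNBS held samples above and below the healthy range. In DNBS_Nissle the only value above it, in sample 5, is a filled one, and the remaining values lay below it. With filled values left out over the whole panel, which also shifted the scaling, DNBS_Nissle minus healthy was −0.79. The same setting gave −0.59 for DNBS_CEC and −0.64 for DNBS against healthy, although no Kitl value was filled in those groups. The Kitl difference from healthy was −0.46 ± 0.39 for DNBS_CEC, −0.42 ± 0.39 for DNBS_Nissle and −0.51 ± 0.39 for DNBS, and each interval included 0. It was −0.24 for DNBS_CEC without its sample 1 and −0.25 for DNBS_Nissle without its sample 7. For DNBS it was −0.30 without sample 5 and −0.86 without sample 4.

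Among the groups given DNBS, neither gene separated. For Kit, DNBS_CEC minus DNBS was −0.17 ± 0.48, DNBS_Nissle minus DNBS was −0.32 ± 0.48 and DNBS_CEC minus DNBS_Nissle was 0.15 ± 0.48. For Kitl, the same differences were 0.05 ± 0.39, 0.09 ± 0.39 and −0.04 ± 0.39.

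**Figure D3:**
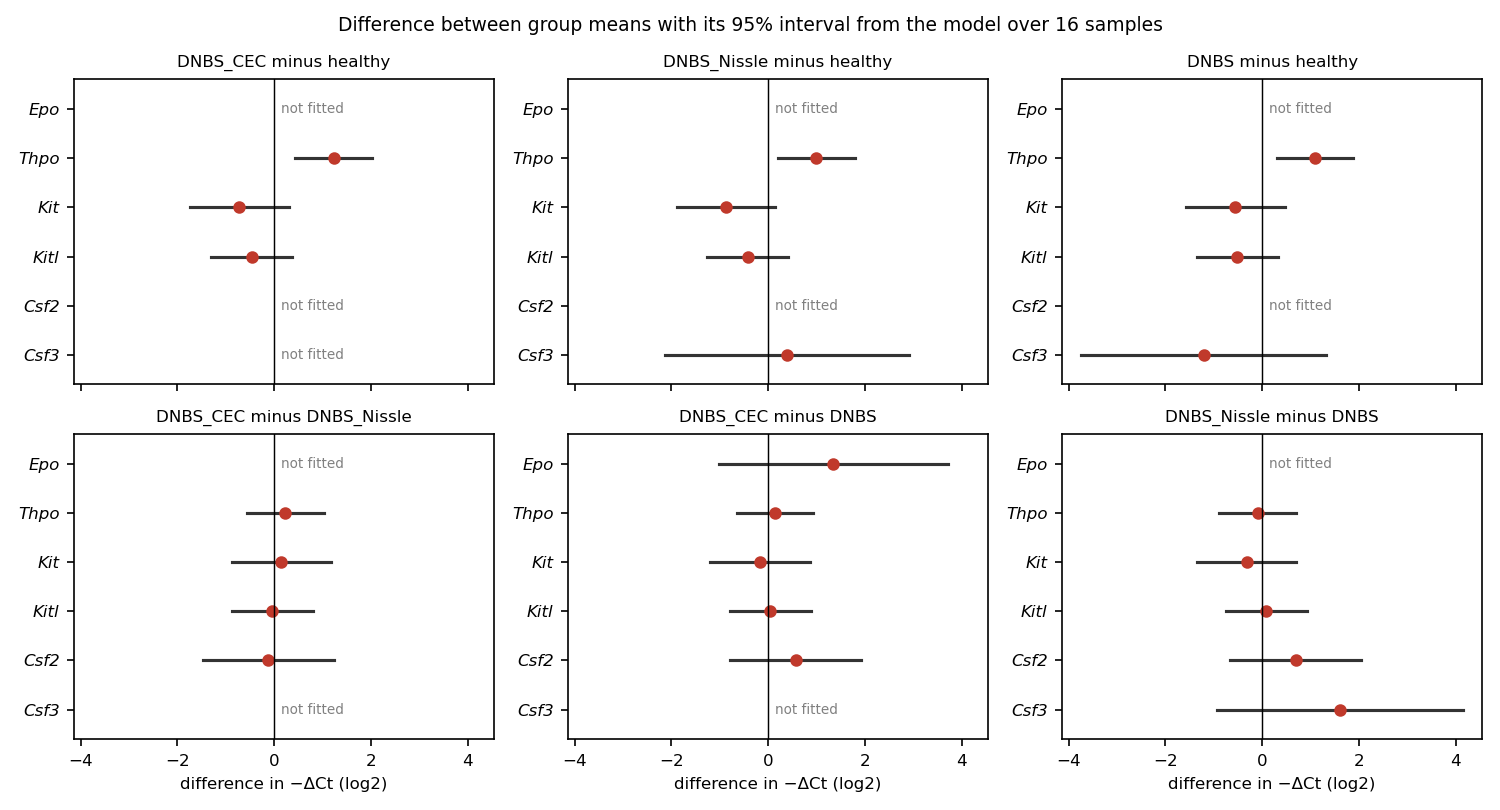
Difference in −ΔCt (log2, x axis) between group means for each member and each of the 6 comparisons, with its 95% interval from the model over all 16 samples. Members detected in fewer than 3 of 4 samples of either group are marked as not fitted. The Thpo intervals against healthy lie above 0 (0.44 to 2.02, 0.21 to 1.79 and 0.30 to 1.88), and every other interval drawn includes 0.

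When the whole panel was tested with limma and Benjamini-Hochberg adjustment, 0 of the 3 to 5 members fitted per comparison passed an adjusted p of 0.05. The members were picked with their values known, so this count describes where they fell and is no test of them. Under the detection filter, Thpo, Kit and Kitl were fitted in all 6 comparisons, Csf2 and Csf3 in 3 each, and Epo in DNBS_CEC minus DNBS only. Of all genes tested, 0% passed for DNBS_CEC minus healthy, 2.11% for DNBS_Nissle minus healthy and 0.211% for DNBS minus healthy. The shares were 0% for DNBS_CEC minus DNBS, 0% for DNBS_Nissle minus DNBS and 0% for DNBS_CEC minus DNBS_Nissle. In those comparisons with no gene called, 26 genes (DNBS_CEC minus healthy), 8 (DNBS_CEC minus DNBS), 7 (DNBS_Nissle minus DNBS) and 22 (DNBS_CEC minus DNBS_Nissle) had an unadjusted limma p under 0.05.

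Of 44 other genes of haematopoietic cytokine signalling, 26 were on the panel, and 21 were tested against healthy. The receptors for erythropoietin and granulocyte colony-stimulating factor (Epor and Csf3r) were not analysed here. For DNBS_CEC, 12 of the 21 were higher and 9 lower, with 0 past the test and a median difference of 0.09, against 0.09 over all 474 genes tested. For DNBS_Nissle, 13 were higher and 8 lower, with 1 past the test and a median of 0.09, against −0.09 over all 473 genes. For DNBS, 15 were higher and 6 lower, with 0 past the test and a median of 0.17, against 0.12 over all 473 genes.

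Hif1a, the oxygen-regulated subunit of a hypoxia-inducible transcription factor, was the gene that passed. It rose by 1.50 ± 0.37 in DNBS_Nissle against healthy (limma adjusted p = 0.0457). Its level averaged −0.11 ± 0.42 in DNBS_Nissle and −1.61 ± 0.21 in healthy samples (SD, n = 4 each). The call was kept in 12 of 23 alternative settings and lost in 11, with adjusted p between 0.0221 and 0.322. Leaving out any 1 healthy sample, or DNBS_Nissle sample 1, 4 or 5, ended it. The Hif1a difference from healthy was 1.62 ± 0.37 for DNBS_CEC (limma adjusted p = 0.228) and 0.90 ± 0.37 for DNBS (limma adjusted p = 0.343).

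The receptor chains for Csf2 did not pass the test. Csf2rb, the beta chain shared with the interleukin-3 and interleukin-5 receptors, differed from healthy by 0.68 ± 0.57 in DNBS_CEC, 1.40 ± 0.57 in DNBS_Nissle and 0.84 ± 0.57 in DNBS samples. Csf2ra, the chain that binds the ligand, differed by 0.00 ± 0.41 in DNBS_CEC, 0.35 ± 0.41 in DNBS_Nissle and 0.17 ± 0.41 in DNBS samples. Il3ra, the alpha chain of the interleukin-3 receptor, was above healthy in all 12 samples given DNBS, by 0.67 ± 0.28 in DNBS_CEC, 0.44 ± 0.28 in DNBS_Nissle and 0.72 ± 0.28 in DNBS samples. That separation was narrow, with the lowest DNBS_CEC sample at −4.957 and the highest healthy sample at −4.965. Flt3l, the ligand of a receptor related to Kit, differed by −0.45 ± 0.34 in DNBS_CEC, −0.93 ± 0.34 in DNBS_Nissle and −0.30 ± 0.34 in DNBS samples. Il3, Il5 and Il9, cytokine genes of T cells and other lymphocytes, were detected in 0 of 16 samples.

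**Figure D4:**
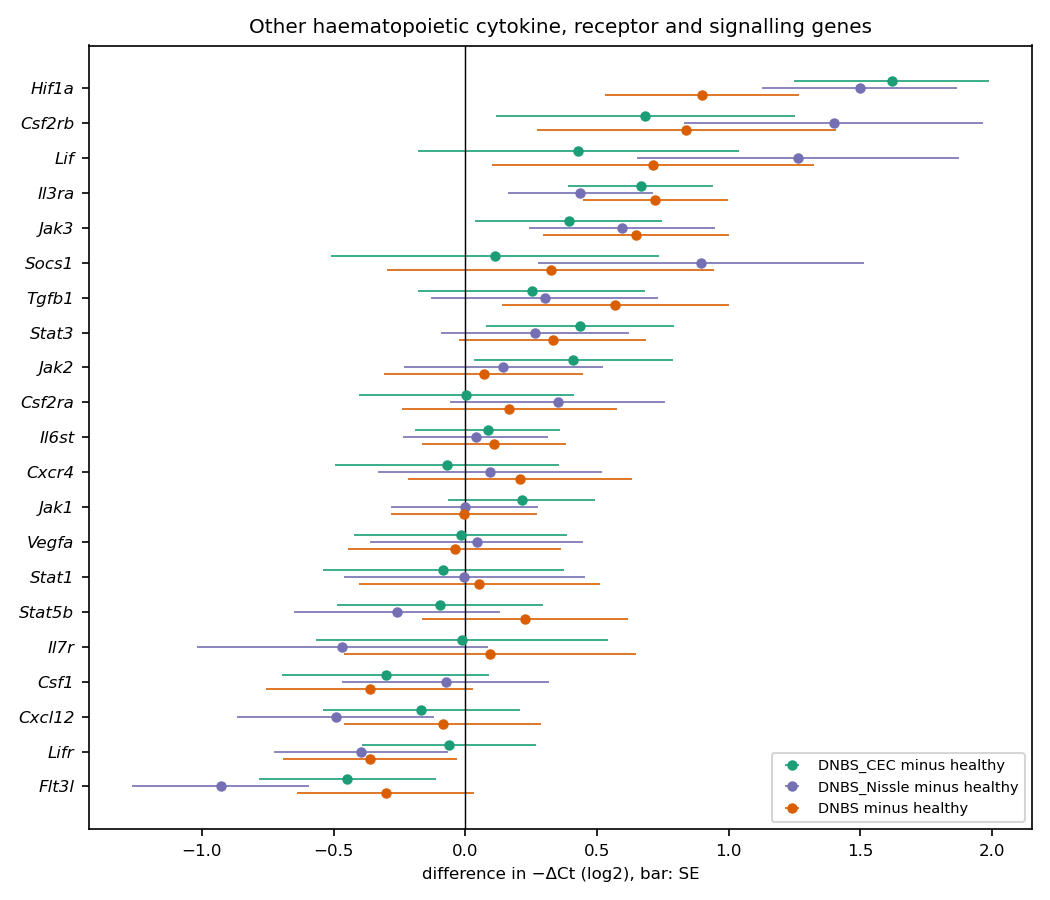
Difference in −ΔCt from healthy (log2, x axis, bars show the SE) for the 21 tested genes of the cytokine signalling list in DNBS_CEC, DNBS_Nissle and DNBS samples. Hif1a leads, at 1.62, 1.50 and 0.90 in that order, and most other genes lie within 1 of 0.

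The genes whose levels followed each member most closely differed between members. These correlations are descriptions across samples that share their reference scaling. Over 16 samples, Thpo followed Lbp (r = 0.78), Hif1a (r = 0.77) and Muc1 (r = 0.74). Kit followed Gpx4 (r = 0.94), Ccrl1 (r = 0.92) and Ccl25 (r = 0.90), and Kitl was closest to Ccl6 (r = 0.87) and Pik3r1 (r = 0.85) among genes whose names are whole in the table. Among such genes, Csf2 was closest to Cd274 (r = 0.70) and Ripk2 (r = 0.66) over 14 samples, behind a gene listed only as Cd (r = 0.73). Over the 12 samples in which it was detected, Csf3 followed Il1rap (r = 0.66), Il1r1 (r = 0.65) and Tnfaip6 (r = 0.62). Scaled to the mean of all detected genes instead, these correlations lay between 0.57 and 0.92. Epo was detected in too few samples to be compared in this way.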

How the data were processed

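Total RNA of mouse colonic mucosa was measured on TaqMan OpenArray Mouse Inflammation Panel cards, per the labels' protocols. The authors deposited 1 table of raw Ct values (cycles, not normalized), which its header calls a truncated example; other processing is not given in the sources used here. The digits 40 were lost from some names, so that the Thpo assay is listed as Mm004370_m1. Filled values matched the average of the remaining 3 samples of a group within 2e-06 cycles. Short decimals (at most 4) marked 532 values, or 5.52% of Ct values under 40.

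From these, −ΔCt was computed against 13 endogenous control genes (19 assays). For genes with several assays, those detected in most samples were averaged. A gene was tested where each compared group had 3 or more of its 4 samples detected, with 1 limma model over 16 samples (limma 3.58.1, R 4.3.3, 12 residual degrees of freedom), with Benjamini-Hochberg adjustment per comparison and a threshold of 0.05. Differences of single assays that were not tested came from the same model, fitted to every assay without the detection filter. The model was tested on simulated data. Members, lists and tests were chosen with earlier results of these data known. Other genes were named by receptor or ligand role, by passing the test, or as the 3 most correlated with a member detected in at least 12 samples. Numbers were not taken as pairs in the main model. Same-numbered samples of different groups correlated between −0.50 and 0.34 over 10 pairs, too few to decide on pairing. A fit with the replicate number as a block was therefore an alternative setting. Sequences of the assays were not used here.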

Additional observations from a re-analysis of the deposited data

How the results depend on the processing

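Members were recomputed under 568 combinations of result and setting. Of these, 563 moved by less than the spread between samples and 39 had the other direction. That spread is a wide measure for genes such as Csf3, so a small count of moves does not make a result steady. Csf3 in DNBS_Nissle minus healthy had the other direction in 2 of 21 settings, with 1 setting counted as moved. The differences from healthy of Thpo, Kit and Kitl kept their direction in all 23 alternatives each. With the replicate number as a block, Csf2 was −0.91 for DNBS_CEC minus DNBS and −1.69 for DNBS_CEC minus DNBS_Nissle. For DNBS_Nissle minus healthy, Kitl ranged between −0.79 without filled values and −0.08 with the replicate block. Csf3 by its second assay was 1.27 for DNBS minus healthy and 2.51 for DNBS_Nissle minus healthy.

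The number of genes called over the panel was unstable. For DNBS_Nissle minus healthy (10 called) it was 18 after quantile normalization, 0 with the replicate block, 20 with only the compared groups fitted, and 0 without healthy sample 3 and DNBS_Nissle sample 1. It ranged between 0 and 11 when 1 sample was left out. For DNBS minus healthy (1 called) it was 0 with Gapdh alone, the global mean, quantile normalization, any Ct under 40 taken as detected, or without healthy sample 3 and DNBS_Nissle sample 1. It was 4 without values of few decimals, 2 with the replicate block and 5 with only the compared groups fitted, and it ranged between 0 and 6 when 1 sample was left out (6 without DNBS sample 4). For DNBS_CEC minus healthy it was 0 or 1 when 1 sample was left out (1 without DNBS_CEC sample 8). For DNBS_CEC minus DNBS_Nissle it was 1 with a Ct limit of 30. The cause of these moves was not tested. Among the settings, 4 were chosen after seeing the data; they left out the endogenous controls, kept Ct above 28 as deposited, added B2m and Tfrc to the reference, or left out the samples with most filled values. Median differences over all genes moved with the scaling, for DNBS minus healthy between −0.18 and 0.12.

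The card has 1 value per assay and sample, so technical error is unknown. Most Csf2 values lay near or past the detection limit, whereas Epo and Csf3 ranged between early amplification and none or late. With 4 samples per group, 1 sample decided several counts.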
